A study of Mus musculus with 8 samples.

Results

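The genes described here encode inhibitory and costimulatory receptors of T cells and, in the case of Cd200, the ligand of an inhibitory receptor. They are the 9 symbols Pdcd1, Btla, Ctla4, Lag3, Cd160, Cd200, Cd28, Icos and Cd226, chosen by name with earlier results of these data known. All 9 were found among the 23278 genes of each of the 4 deposited tables. The related gene lists used below were also chosen with those results known. Counts of called genes beside the shares over all genes therefore describe these sets and do not test them.

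T cells read antigen through the T cell receptor (TCR), and a second layer of surface receptors raises or lowers the strength of that signal. CD28, ICOS and CD226 add signals when they bind ligands on the partner cell, whereas PD-1 (Pdcd1), BTLA, CTLA-4 and LAG-3 restrain it, in part by recruiting phosphatases or by competing for ligand. In the thymus, CD4+CD8+ double-positive (DP) cells are selected on the strength of their TCR signal, and several of these receptors, PD-1 among them, are known to appear on cells that have begun to receive it.

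The study sequenced RNA of sorted mouse DP thymocytes to ask how loss of Hdac3, a histone deacetylase, alters gene expression. The groups were Hdac3KO DP2, WT DP2, Hdac3KO DP1 and WT DP1, with 2 libraries each and 8 in all, from C57BL/6 mice. DP2 cells were GFP+CD4+CD8+ with high CD5 and intermediate TCRβ, and DP1 cells were GFP+CD4+CD8+ with low CD5 and low TCRβ. Hdac3KO animals carried floxed Hdac3 alleles (Hdac3F/F) with LCK-Cre, a Cre recombinase driven by the promoter of the T cell kinase gene Lck, and WT animals were Hdac3+/+. Whether the Hdac3+/+ animals also carried LCK-Cre, what gave the GFP signal and the age of the mice are not stated in the sources used here. Libraries were made from pools of RNA.

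The values are FPKM, fragments scaled to transcript length and library size, with 1 value for each gene and group, so the spread between libraries, their order and whether single libraries overlap are not given here, and the depth behind a value is unknown. Values of a stage comparison come from the stage tables and values of a genotype comparison from the genotype tables. A gene was called when the q-value in the authors' deposited table was at most 0.05. Each standard error (SE) of a log2 change was worked back from the deposited p, and is an upper bound where that p is 5e-05, the smallest in the tables. Genes that the authors' tables list without a test have no q, and their values are given as they stand. In bulk RNA, fewer cells that carry a transcript and less of it per cell cannot be told apart.

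Hdac3 itself fell to 15.4 FPKM in Hdac3KO DP2, against 29.7 in WT DP2 (q = 0.0131 in the authors' deposited table), and to 11.7 FPKM in Hdac3KO DP1, against 38.1 in WT DP1 (q = 0.000879 in the authors' deposited table). Xist, transcribed from the inactive X chromosome of female cells, was at 139 FPKM in Hdac3KO DP2 and 0.243 in WT DP2, and at 208 FPKM in Hdac3KO DP1 and 0.0945 in WT DP1. The Y-linked Kdm5d was at 0.322 FPKM in Hdac3KO DP2 and 34.6 in WT DP2, and at 0.264 FPKM in Hdac3KO DP1 and 20.01 in WT DP1. Genotype and sex therefore cannot be told apart in the genotype comparisons, nor where stage changes are contrasted between genotypes. Each single stage comparison was made between pools of 1 genotype with the same sex pattern, though levels differed. In the authors' deposited tables Xist was lower in Hdac3KO DP2 than in Hdac3KO DP1 (q = 0.0337). The Y-linked Ddx3y was higher in WT DP2 than in WT DP1 (q = 0.000835), while Kdm5d did not pass (q = 0.125). No member lies on the X or Y chromosome. The sorted cells carried DP markers in every group, among them Cd4 at 392 FPKM in Hdac3KO DP2, 208 in WT DP2, 378 in Hdac3KO DP1 and 359 in WT DP1. All 6 markers of natural killer and γδ T cells were too low for a deposited test in any table, with summed levels of 1.05 to 3.32 FPKM, and Ncr1 was listed at 0 in WT DP2 and WT DP1. Foxp3, the defining gene of regulatory T cells, was at 0.671 FPKM in Hdac3KO DP2, 0.693 in WT DP2, 0.662 in Hdac3KO DP1 and 0.191 in WT DP1.

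Cd28 was the most abundant member in every group, and the members differed widely in level. It stood at 108 FPKM in Hdac3KO DP2, 155 in WT DP2, 66.7 in Hdac3KO DP1 and 50.1 in WT DP1, each above at least 92.5% of all listed genes. Cd226 came next in every group, at 26.8 FPKM in Hdac3KO DP2, 60.0 in WT DP2, 10.2 in Hdac3KO DP1 and 5.55 in WT DP1. Below these the order differed between groups, with Icos next in Hdac3KO DP2 at 8.80 FPKM and Pdcd1 among the lowest there at 1.32. In WT DP2 Pdcd1 and Btla came next, at 20.7 and 18.8 FPKM. In DP1 cells the lowest members were Btla at 0.438 FPKM in the Hdac3KO pool and Cd200 at 0.331 FPKM in the WT pool. Neighbours in these orders cannot be separated by their spread, which is not given.

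**Figure D1:**
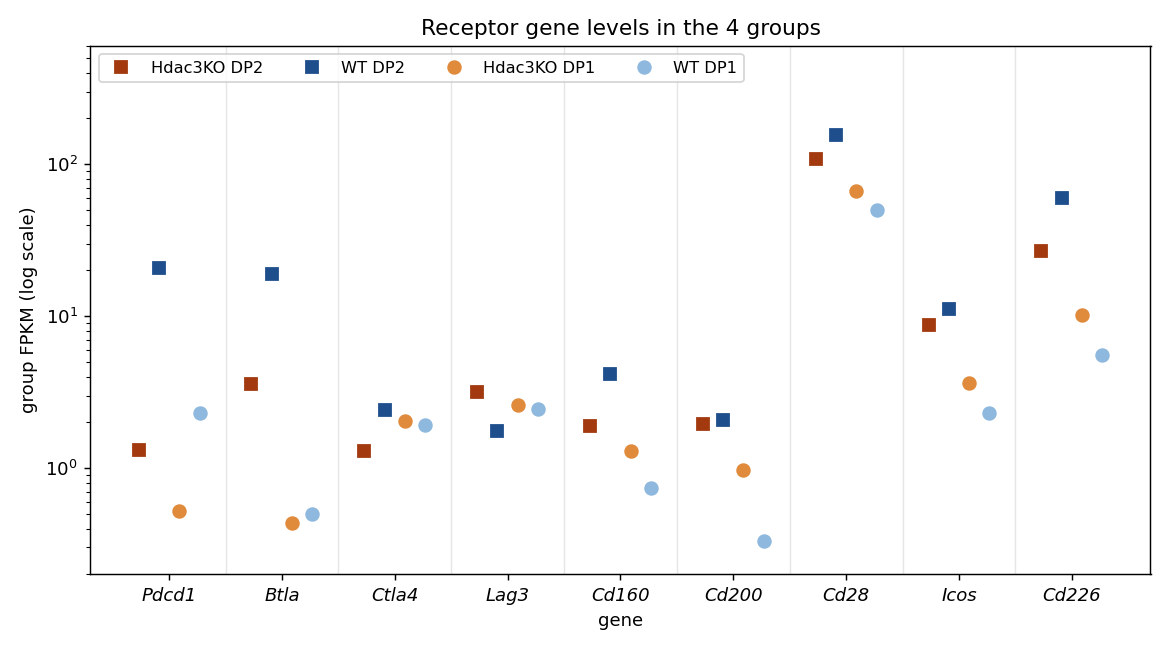
FPKM (log axis) of each member gene in the 4 groups, 1 deposited value per gene and group, from the genotype tables. Pdcd1 and Btla stand at 20.7 and 18.8 FPKM in WT DP2 and at or below 3.57 FPKM in the other groups, while Cd28 is the highest member in all 4.

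The stage comparison within each genotype asked how expression changes as DP cells acquire high CD5. In Hdac3KO cells 2 members, Icos and Cd226, were higher in DP2 than in DP1. In WT cells 7 members were higher: Pdcd1, Btla, Cd160, Cd200, Cd28, Icos and Cd226. Lag3 did not pass in either genotype, and Ctla4 was not tested. In Hdac3KO 4 of the 9 members had a deposited test, 2 were called higher and 0 lower, where 6.43% of all 10231 tested genes were called, 1.78% higher and 4.65% lower. In WT 8 had one, 7 were called higher and 0 lower, where 22.3% of all 10851 tested genes were called, 5.56% higher and 16.8% lower. The median log2 change over all 9 members was 0.86 in Hdac3KO and 2.30 in WT, beside 0.01 over all tested genes in Hdac3KO and -0.27 in WT. A gene must reach a minimum of reads to be tested, and members tested because they are high in DP2 are favoured among the calls.

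Pdcd1 encodes PD-1, which binds PD-L1 and PD-L2 and recruits the phosphatase SHP-2. Its gene lies on mm10 chromosome 1, 94038305 to 94052553, minus strand. In Hdac3KO cells it was at 1.19 FPKM in DP2 and 0.528 in DP1 in the authors' deposited table and was not tested (log2 change 1.18). In WT cells it rose to 19.8 FPKM in DP2, against 2.63 in DP1, a 7.54-fold difference in the authors' deposited table (log2 change 2.91 ± 0.72, q = 0.000835). Btla encodes a receptor that binds the TNF receptor family member HVEM (Tnfrsf14), and its gene lies on chromosome 16, 45224337 to 45252895, plus strand. It was at 3.25 FPKM in Hdac3KO DP2 and 0.443 in Hdac3KO DP1 in the authors' deposited table, untested, with a log2 change of 2.87. In WT DP2 it rose to 18.4 FPKM, against 0.556 in WT DP1 (log2 change 5.05 ± 1.80, q = 0.0282 in the authors' deposited table). It was low in DP1 cells of both genotypes.

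The sequences upstream of the start sites of Pdcd1 and Btla, the members with the largest genotype differences in DP2, are shown beside that of Ctla4, which lies between Cd28 and Icos and kept a low level in all groups. They come from RefSeq (GRCm38.p6, the assembly of mm10), whose table gave windows for 5 of the members here. Each covers the 250 bases before the RefSeq start site, 5′ to 3′ on the gene's own strand. In the GENCODE annotation Ctla4 starts at 60887000, so that its whole window lies inside the annotated gene. Btla starts there at 45224315, within its window. Pdcd1 is at chr1:94052554-94052803 (minus strand), Btla at chr16:45224087-45224336 (plus strand) and Ctla4 at chr1:60908775-60909024 (plus strand). Capitals mark matches, on either strand, to any of 5 motifs.
Pdcd1: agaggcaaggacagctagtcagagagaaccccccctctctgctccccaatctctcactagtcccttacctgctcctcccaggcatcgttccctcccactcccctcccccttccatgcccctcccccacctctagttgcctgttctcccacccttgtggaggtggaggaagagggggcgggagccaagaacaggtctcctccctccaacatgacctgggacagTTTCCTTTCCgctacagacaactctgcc
Btla: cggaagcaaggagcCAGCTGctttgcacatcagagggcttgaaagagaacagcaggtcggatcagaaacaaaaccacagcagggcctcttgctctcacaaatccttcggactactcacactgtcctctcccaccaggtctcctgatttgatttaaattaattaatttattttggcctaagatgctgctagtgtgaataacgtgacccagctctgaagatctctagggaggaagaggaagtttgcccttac
Ctla4: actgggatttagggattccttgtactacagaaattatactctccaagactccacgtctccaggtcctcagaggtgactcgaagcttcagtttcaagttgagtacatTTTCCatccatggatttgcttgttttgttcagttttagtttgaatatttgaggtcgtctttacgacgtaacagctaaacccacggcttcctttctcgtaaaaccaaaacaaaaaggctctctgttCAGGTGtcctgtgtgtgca

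The motifs searched were TGANTCA (AP-1), GGAAA (the core bound by NFAT), CAGNTG (an E box), AAAGGTCA (NR4A) and GCGNGGGCG (EGR), each also as its reverse complement, and no matches shared bases. The Pdcd1 window held 2 GGAAA matches next to each other on the opposite strand (TTTCC in the sequence as printed), Btla held 1 E box and Ctla4 held 1 GGAAA match and 1 E box. Among all 32851 windows of this length, 55.6% held GGAAA, 44.8% the E box, 6.75% TGANTCA, 1.34% AAAGGTCA and 4.70% GCGNGGGCG. These matches describe letters in the windows and are common, and the base composition differed, with 60.4% G and C in Pdcd1, 47.2% in Btla and 42.4% in Ctla4.

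Ctla4 and Lag3 were low at both stages. CTLA-4 competes with CD28 for CD80 and CD86. Ctla4 was at 1.18 FPKM in Hdac3KO DP2 and 2.06 in Hdac3KO DP1, and at 2.36 FPKM in WT DP2 and 2.16 in WT DP1, without a deposited test. LAG-3 binds MHC class II molecules, and its gene neighbours Cd4 on chromosome 6. Lag3 was at 2.86 FPKM in Hdac3KO DP2 and 2.60 in Hdac3KO DP1 (q = 0.93 in the authors' deposited table), and at 1.66 FPKM in WT DP2 and 2.80 in WT DP1 (q = 0.229 in the authors' deposited table). Lag3 was the single member with a lower WT value in DP2, at a log2 change of -0.76 ± 0.46 that did not pass. Cd160 encodes a GPI-anchored receptor that also binds HVEM. It was at 1.72 FPKM in Hdac3KO DP2 and 1.30 in Hdac3KO DP1, untested, and rose to 4.07 FPKM in WT DP2, against 0.825 in WT DP1 (log2 change 2.30 ± 0.69, q = 0.00778 in the authors' deposited table). The start of Cd160 meets the annotated Pdzk1 gene on the opposite strand, and the strand setting of the counting is not given in the sources used here. Cd200 encodes the ligand of the inhibitory receptor CD200R, and lies 129 kilobases from Btla on chromosome 16. It was at 1.78 FPKM in Hdac3KO DP2 and 0.979 in Hdac3KO DP1, untested, and rose to 1.99 FPKM in WT DP2, against 0.372 in WT DP1 (log2 change 2.42 ± 0.87, q = 0.0294 in the authors' deposited table). The calls of Cd160 and Cd200 in WT ended when the p was taken from the deposited test statistic (q = 0.0531 and 0.069), with ranges over their alternatives of 0.00249 to 0.0531 and 0.013 to 0.069.

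The costimulatory receptors were tested in both genotypes. Cd28, whose product binds CD80 and CD86, was at 98.2 FPKM in Hdac3KO DP2 and 67.0 in Hdac3KO DP1 and did not pass (log2 change 0.55 ± 0.21, q = 0.0952 in the authors' deposited table). It rose to 150 FPKM in WT DP2, against 56.4 in WT DP1 (log2 change 1.41 ± 0.35, q = 0.000835 in the authors' deposited table). Icos, whose product binds ICOS ligand, rose to 8.01 FPKM in Hdac3KO DP2, against 3.65 in Hdac3KO DP1 (log2 change 1.13 ± 0.37, q = 0.0356 in the authors' deposited table). It also rose to 10.9 FPKM in WT DP2, against 2.59 in WT DP1 (log2 change 2.07 ± 0.51, q = 0.000835 in the authors' deposited table). An unnamed annotated gene overlaps Icos on the same strand, and reads of both cannot be separated at gene level. Cd226 encodes DNAM-1, which binds the poliovirus receptor (Pvr) and nectin-2. It rose to 24.3 FPKM in Hdac3KO DP2, against 10.4 in Hdac3KO DP1 (log2 change 1.23 ± 0.33, q = 0.00406 in the authors' deposited table). In WT it rose to 58.7 FPKM in DP2, against 6.26 in DP1, 9.37-fold (log2 change 3.23 ± 0.80, q = 0.000835 in the authors' deposited table). The WT value in DP1 was the lowest of the 4 and that in DP2 the highest.

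**Figure D2:**
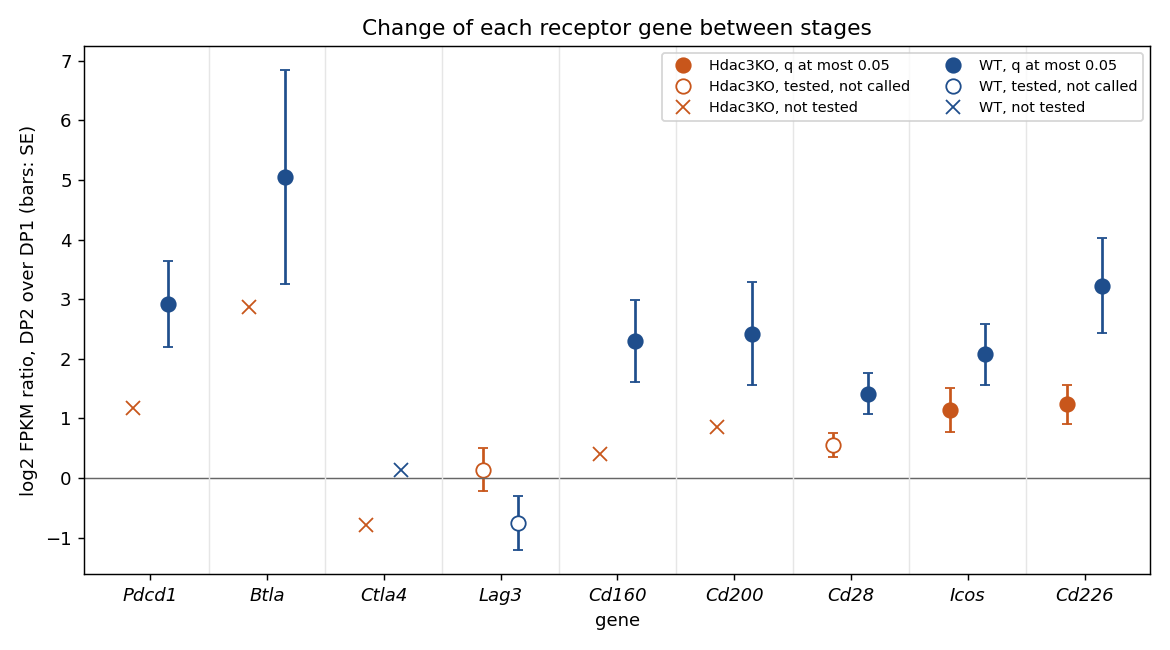
Log2 ratio of FPKM, DP2 over DP1, of each member gene in Hdac3KO (orange, left) and WT (blue, right), with bars of 1 SE, worked back from the deposited p. Filled points have q at most 0.05, open points were tested without a call and crosses were not tested. The 7 genes called in WT all lie lower in Hdac3KO, for example Cd226 at 1.23 and 3.23.

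The signed log2 change from DP1 to DP2 was lower in Hdac3KO than in WT for 8 of the 9 members, with Lag3 as the exception. Ctla4, at -0.80 in Hdac3KO and 0.13 in WT, was lower by sign but not smaller in size. The 8 include all 7 members called higher in WT. The same held for 552 (92.2%) of the 599 genes called higher in WT with a finite change in both tables, whose median log2 change was 0.43 in Hdac3KO and 1.33 in WT, and selection on the WT call favours this direction. Of 10 DP markers, 0 were called higher and 1 lower in DP2 against DP1 in Hdac3KO, and 0 higher and 6 lower in WT. The share of all tested genes called lower was 4.65% in Hdac3KO and 16.8% in WT. The summed level of the DP markers was 7139 FPKM in Hdac3KO DP2 and 7554 in Hdac3KO DP1, and 3470 FPKM in WT DP2 and 7369 in WT DP1. The part of this shift in the member genes was not tested.

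Cd28, Ctla4 and Icos lie next to each other on chromosome 1, all on the plus strand, from 60746388 (the start of Cd28) to 61000321 (the end of Icos), a stretch of 254 kilobases. Ctla4 is separated by 136 kilobases from Cd28 and by 62.1 kilobases from Icos. The 2 outer genes rose in WT DP2, with log2 changes of 1.41 for Cd28 and 2.07 for Icos, while the gene between them had a log2 change of 0.13 and was not tested. In Hdac3KO the log2 changes were 0.55 for Cd28, -0.80 for Ctla4 and 1.13 for Icos.

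**Figure D3:**
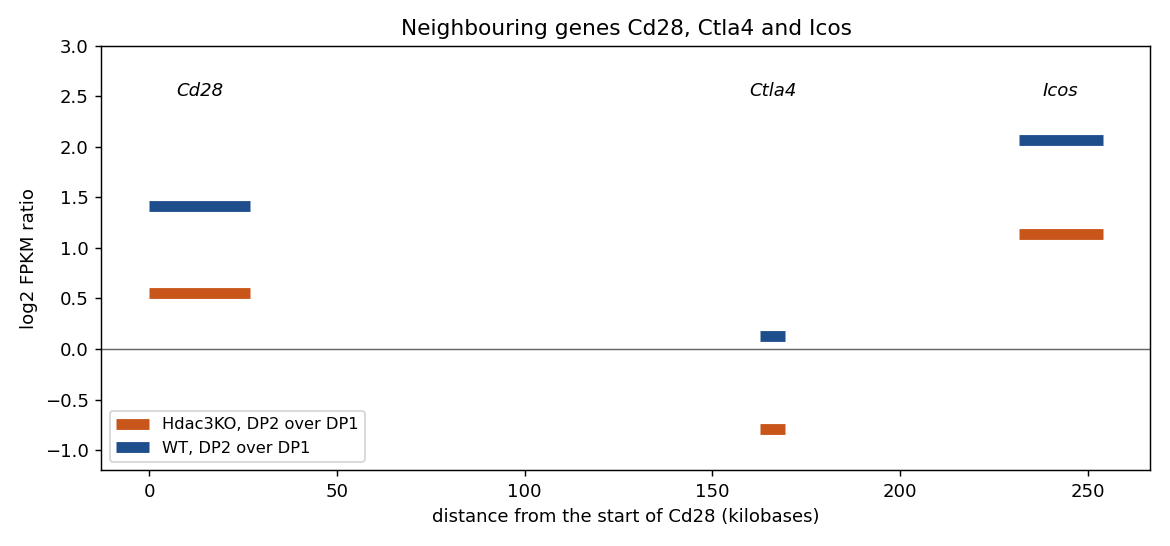
Log2 ratio of FPKM, DP2 over DP1, of Cd28, Ctla4 and Icos drawn at their distance from the start of Cd28 in kilobases, for Hdac3KO (orange) and WT (blue). The bar length is the gene's extent. Ctla4 lies at -0.80 and 0.13, below both neighbours in both genotypes.

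Between genotypes at the DP2 stage, which asks what the loss of Hdac3 alters once the TCR has begun to signal, 3 members fell in Hdac3KO: Pdcd1, Btla and Cd226. Of 8 members with a test, 0 were called higher and 3 lower, where 10.8% of all 10674 tested genes were called, 6.44% higher and 4.32% lower. The median log2 change over all 9 members was -0.89, beside 0.10 over all tested genes. Pdcd1 fell to 1.32 FPKM in Hdac3KO, against 20.7 in WT, which left 6.37% of the WT value (log2 change -3.97 ± 0.98, q = 0.00134 in the authors' deposited table). Among genes called lower in the authors' deposited table, 384 reached 5 FPKM in the higher group and had a finite log2 change. Pdcd1 ranked 5 by size among these 384. The Y-linked Uty, listed at 0 in Hdac3KO, has no finite change and was left out of the ranking. The Y-linked Ddx3y and Kdm5d ranked above Pdcd1, with log2 changes of -7.82 and -6.75. Btla fell to 3.57 FPKM in Hdac3KO, against 18.8 in WT, which left 19.0% (log2 change -2.40 ± 0.59, q = 0.00134 in the authors' deposited table), and ranked 42. Cd226 fell to 26.8 FPKM in Hdac3KO, against 60.0 in WT, which left 44.6% (log2 change -1.16 ± 0.29, q = 0.00134 in the authors' deposited table), and ranked 227. These 3 calls held under every alternative tried.

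The other members did not pass in DP2. Cd160 was at 1.89 FPKM in Hdac3KO and 4.18 in WT (log2 change -1.14 ± 0.52, q = 0.147 in the authors' deposited table). Cd28 was at 108 FPKM in Hdac3KO and 155 in WT (log2 change -0.53 ± 0.23, q = 0.14 in the authors' deposited table). Icos was at 8.80 FPKM in Hdac3KO and 11.2 in WT (log2 change -0.35 ± 0.35, q = 0.608 in the authors' deposited table). Cd200 was at 1.96 FPKM in Hdac3KO and 2.08 in WT (q = 0.95 in the authors' deposited table). Lag3 was the single member with a higher Hdac3KO value, 3.16 FPKM against 1.75 in WT (log2 change 0.85 ± 0.48, q = 0.27 in the authors' deposited table). Ctla4 was at 1.30 FPKM in Hdac3KO and 2.42 in WT and was not tested.

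In DP1 cells, which precede strong TCR signalling, Pdcd1 was the single member called, and it fell. Of 5 members with a test, 0 were called higher and 1 lower, where 23.6% of all 10511 tested genes were called, 10.7% higher and 12.9% lower, so 1 of 5 is near that background. The median log2 change over all 9 members was 0.41, beside -0.10 over all tested genes. Pdcd1 was at 0.525 FPKM in Hdac3KO and 2.31 in WT, which left 22.7% of the WT value (log2 change -2.14 ± 0.69, q = 0.0143 in the authors' deposited table). Its call ended with the trend of fold changes on transcript length removed (q = 0.069) and with the p of the deposited test statistic (q = 0.0729), with a range over its alternatives of 0.0143 to 0.0729. The costimulatory genes had higher values in Hdac3KO DP1 and did not pass. Cd226 was at 10.2 FPKM in Hdac3KO and 5.55 in WT (log2 change 0.88 ± 0.37, q = 0.0682 in the authors' deposited table). After centring on the median gene, which lay at -0.11 in this table, Cd226 passed as higher (q = 0.0375), and its q ranged from 0.000679 to 0.119 over the alternatives. Icos was at 3.62 FPKM in Hdac3KO and 2.29 in WT (log2 change 0.66 ± 0.38, q = 0.197 in the authors' deposited table). Cd28 was at 66.7 FPKM in Hdac3KO and 50.1 in WT (log2 change 0.41 ± 0.25, q = 0.234 in the authors' deposited table). Lag3 was at 2.61 FPKM in Hdac3KO and 2.45 in WT (q = 0.89 in the authors' deposited table). Btla at 0.438 FPKM in Hdac3KO and 0.496 in WT, Ctla4 at 2.03 in Hdac3KO and 1.91 in WT, Cd160 at 1.29 in Hdac3KO and 0.733 in WT and Cd200 at 0.973 in Hdac3KO and 0.331 in WT were not tested.

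**Figure D4:**
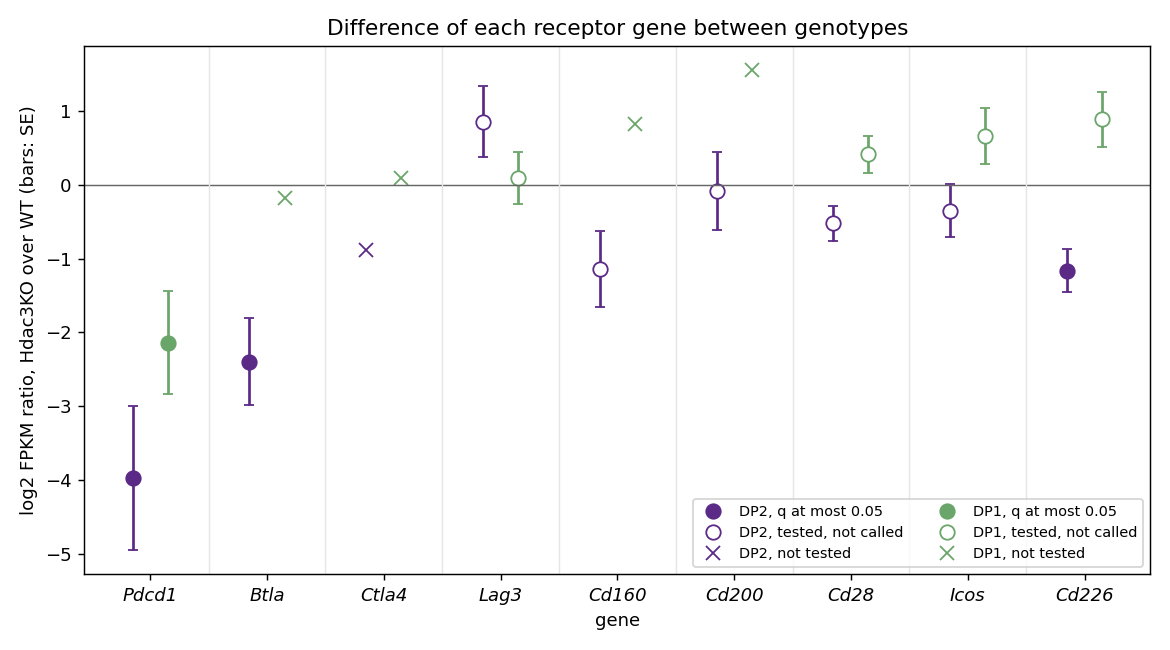
Log2 ratio of FPKM, Hdac3KO over WT, of each member gene in DP2 (purple, left) and DP1 (green, right), with bars of 1 SE worked back from the deposited p. Filled points have q at most 0.05, open points were tested without a call and crosses were not tested. Pdcd1 is called in both stages, at -3.97 and -2.14, and Cd226 lies at -1.16 in DP2 and 0.88 in DP1.

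For the question whether the genotype difference itself differed between stages, the log2 change in DP1 was subtracted from that in DP2 and divided by the joint SE (two-sided normal p, Benjamini-Hochberg over 10144 genes). This test called 2.08% of genes, 0.897% higher and 1.18% lower, and among the 5 members it could test it called Cd226. The Cd226 difference was -2.05 ± 0.47 (q = 0.00894), from -1.16 in DP2 and 0.88 in DP1. From the 2 stage tables, made of the same libraries, it was -2.00 ± 0.86 and did not pass (q = 0.152, where 3.13% of 9969 genes were called and 1.06% were lower), and with the SE multiplied by 1.5 it did not pass either (q = 0.985), a setting under which no gene of the table was called. The q of Cd226 ranged from 6.91e-12 to 0.985 over its alternatives. Cd28 had a difference of -0.94 ± 0.34 (q = 0.108), Icos one of -1.01 ± 0.52 (q = 0.271) and Pdcd1 one of -1.84 ± 1.20 (q = 0.406), none of which passed, and their 95% intervals ran from -1.61 to -0.26, from -2.02 to 0.005 and from -4.19 to 0.52. Lag3 had a difference of 0.77 ± 0.60 (q = 0.503). Btla, Cd160, Cd200 and Ctla4 were not tested, with differences of -2.22, -1.96, -1.64 and -0.98. The direction was the same for 8 of the 9 members, Lag3 excepted. This rearranges the contrast of stage changes above, from the same groups, and adds no further result.

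By the profile of its 4 log2 changes (genotype in DP2 and DP1, stage in Hdac3KO and WT), Pdcd1 was most like Hhex, Zfp248 and Plk5 among 8045 genes tested in all tables, at Euclidean distances of 1.21, 1.71 and 1.74, where the median gene lay at 5.80. Btla was nearest to Egr2, Itm2a and Cd69, at distances of 1.86, 1.94 and 2.53, with the median gene at 6.65. Both profiles include the untested stage change in Hdac3KO, and that of Btla also the untested genotype change in DP1. With 1 added to each FPKM, the stage change in Hdac3KO went from 1.18 to 0.52 for Pdcd1 and from 2.87 to 1.56 for Btla. Cd226 was nearest to Sytl2, Tox2 and Pacsin1, at 0.27, 0.92 and 1.03, among 8044 genes with a median of 4.17. Icos was nearest to Npff, Cstad and Arid5b, at 0.35, 0.40 and 0.42, among the same number of genes with a median of 2.90. The 4 changes share groups, so a profile holds fewer than 4 independent values. Between members the closest pair was Cd28 and Icos at 0.93, and the farthest was Btla and Lag3 at 7.20.

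Of 14 other inhibitory receptor genes listed, 8 were tested in DP2, 1 was called higher and 1 lower in Hdac3KO, where 6.44% of all tested genes were called higher and 4.32% lower. In DP1 0 were called higher and 1 lower of 8, where 10.7% of all tested genes were higher and 12.9% lower. Cd96, a receptor that binds Pvr, fell to 45.9 FPKM in Hdac3KO DP2, against 101 in WT DP2 (q = 0.00134), and to 38.7 FPKM in Hdac3KO DP1, against 76.4 in WT DP1 (q = 0.00303), in the authors' deposited tables. The gene listed as 4632428N05Rik, an older symbol of Vsir, which encodes VISTA, rose to 29.9 FPKM in Hdac3KO DP2, against 12.9 in WT DP2 (q = 0.00134 in the authors' deposited table). From DP1 to DP2, 2 of 7 tested genes were called higher in Hdac3KO and 2 of 8 in WT, with 0 lower in either. Of all tested genes, 1.78% were called higher and 4.65% lower in Hdac3KO, and 5.56% higher and 16.8% lower in WT. Tigit, which binds the same ligands as CD226 and restrains T cells, was among the WT calls, at 9.77 FPKM in DP2 and 0.683 in DP1 (q = 0.0196 in the authors' deposited table). Cd5 was called in both genotypes, but the cells were sorted by surface CD5.

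Among other costimulatory receptors, those called between genotypes were lower in Hdac3KO. Of 10 tested in DP2, 0 were called higher and 4 lower in Hdac3KO, where 6.44% of all tested genes were higher and 4.32% lower. Of 8 tested in DP1, 0 were higher and 2 lower, where 12.9% of all tested genes were lower and 23.6% were called in either direction. Cd40lg, the gene of CD40 ligand, fell to 3.60 FPKM in Hdac3KO DP2, against 24.7 in WT DP2 (q = 0.00245 in the authors' deposited table). Tnfrsf9, which encodes 4-1BB, fell to 0.66 FPKM in Hdac3KO DP2, against 3.84 in WT DP2 (q = 0.0217 in the authors' deposited table). The SLAM family gene Slamf6 fell to 23.5 FPKM in Hdac3KO DP2, against 72.4 in WT DP2 (q = 0.00134), and also fell in DP1 (q = 0.00555), in the authors' deposited tables. Cd81, a tetraspanin gene, fell to 20.3 FPKM in Hdac3KO DP1, against 49.8 in WT DP1 (q = 0.000879 in the authors' deposited table). Between stages 2 of 8 were called higher and 0 lower in Hdac3KO, namely Cd2 and Ly9, and 3 of 10 higher and 1 lower in WT. Over all tested genes, 1.78% were higher and 4.65% lower in Hdac3KO, and 5.56% higher and 16.8% lower in WT. The WT calls were Cd40lg, at 24.0 FPKM in DP2 and listed at 0 in DP1, Tnfrsf9, at 3.69 FPKM in DP2 and 0.242 in DP1, and Cd2, at 493 FPKM in DP2 and 96.9 in DP1, while Cd81 fell to 27.3 FPKM in WT DP2, against 56.5 in WT DP1, in the authors' deposited table.

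Ligands of the receptors were mostly low in these cells, and 5 of 15 listed genes were tested in the genotype comparisons. In DP2 2 were called higher and 1 lower in Hdac3KO, where 6.44% of all tested genes were higher and 4.32% lower. In DP1 the counts were 0 and 0, where 10.7% of all tested genes were higher and 12.9% lower. Cd274, which encodes the PD-1 ligand PD-L1, fell to 9.84 FPKM in Hdac3KO DP2, against 20.3 in WT DP2 (q = 0.0159 in the authors' deposited table). It rose with stage to 8.94 FPKM in Hdac3KO DP2, against 4.60 in Hdac3KO DP1 (q = 0.0329), and to 19.7 FPKM in WT DP2, against 4.19 in WT DP1 (q = 0.000835), in the authors' deposited tables. Lgals9 rose to 85.2 FPKM in Hdac3KO DP2, against 42.8 in WT DP2, and Pvr to 59.1 FPKM in Hdac3KO DP2, against 30.5 in WT DP2 (q = 0.00134 each in the authors' deposited table). Lgals9 fell with stage in WT, to 41.1 FPKM in DP2, against 123 in DP1 (q = 0.000835 in the authors' deposited table). These were the calls among ligands, with 1 higher and 0 lower of 5 between stages in Hdac3KO and 1 and 1 of 6 in WT. The shares of all tested genes between stages were 1.78% higher and 4.65% lower in Hdac3KO, and 5.56% higher and 16.8% lower in WT.

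Genes of the proteins that act inside the cell with these receptors were called higher more often than lower in Hdac3KO. Of 20 tested, 5 were higher and 0 lower in DP2, where 6.44% of all tested genes were called higher and 4.32% lower. In DP1 5 were higher and 1 lower of 20, where 10.7% of all tested genes were called higher and 12.9% lower. The adaptor gene Grap2, whose product binds CD28, rose to 179 FPKM in Hdac3KO DP2, against 73.2 in WT DP2 (q = 0.00134 in the authors' deposited table). Vav1, an exchange factor gene, rose to 98.7 FPKM in Hdac3KO DP2, against 51.7 in WT DP2 (q = 0.00134 in the authors' deposited table). The kinase gene Fyn rose to 31.2 FPKM in Hdac3KO DP1, against 16.7 in WT DP1 (q = 0.00255 in the authors' deposited table). Ptpn6, which encodes SHP-1, a phosphatase, fell to 61.4 FPKM in Hdac3KO DP1, against 107 in WT DP1 (q = 0.0111), and was at 114 FPKM in Hdac3KO DP2 and 119 in WT DP2 without a call (q = 0.929), as the authors' deposited tables give it. Ptpn11, the gene of SHP-2, was tested and not called in any table. Between stages 2 of 20 were higher and 0 lower in Hdac3KO (Ptpn6 and Prkcq), and 2 higher (Fyn and Prkcq) and 3 lower (Lck, Akt1 and Grb2) in WT. The shares of all tested genes were 1.78% higher and 4.65% lower in Hdac3KO, and 5.56% higher and 16.8% lower in WT.

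Genes of transcription factors induced through the TCR were called lower more often than higher in Hdac3KO. Of 15 tested in DP2, 1 was called higher and 8 lower, where 6.44% of all tested genes were higher and 4.32% lower. Of 13 tested in DP1, 1 was higher and 6 lower, where 10.7% of all tested genes were higher and 12.9% lower. Their median log2 change was -1.01 in DP2 and -0.89 in DP1, beside 0.10 in DP2 and -0.10 in DP1 over all tested genes. Nr4a3, an orphan nuclear receptor gene, fell to 4.66 FPKM in Hdac3KO DP2, against 21.3 in WT DP2, and Egr2 to 5.36 FPKM in Hdac3KO DP2, against 19.3 in WT DP2 (q = 0.00134 each in the authors' deposited table). Fos, an AP-1 subunit gene, fell to 0.766 FPKM in Hdac3KO DP2, against 4.83 in WT DP2 (q = 0.0136 in the authors' deposited table). Jun, the gene of its partner, fell to 6.02 FPKM in Hdac3KO DP1, against 27.5 in WT DP1 (q = 0.000879 in the authors' deposited table). Nfatc2, the called gene that rose in both stages, was at 12.4 FPKM in Hdac3KO DP2 and 5.56 in WT DP2 (q = 0.00134 in the authors' deposited table). Between stages 6 of 13 were higher and 0 lower in Hdac3KO, and 7 higher and 1 lower of 15 in WT. Beside them stand 1.78% of all tested genes higher and 4.65% lower in Hdac3KO, and 5.56% higher and 16.8% lower in WT. Nr4a1 rose to 28.4 FPKM in Hdac3KO DP2, against 3.56 in Hdac3KO DP1 (q = 0.00151), and to 59.8 FPKM in WT DP2, against 7.58 in WT DP1 (q = 0.000835), in the authors' deposited tables. Its stage changes of 2.99 in Hdac3KO and 2.98 in WT on the log2 scale lay close together, with a difference of 0.01 ± 1.04 (q = 0.995).

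**Figure D5:**
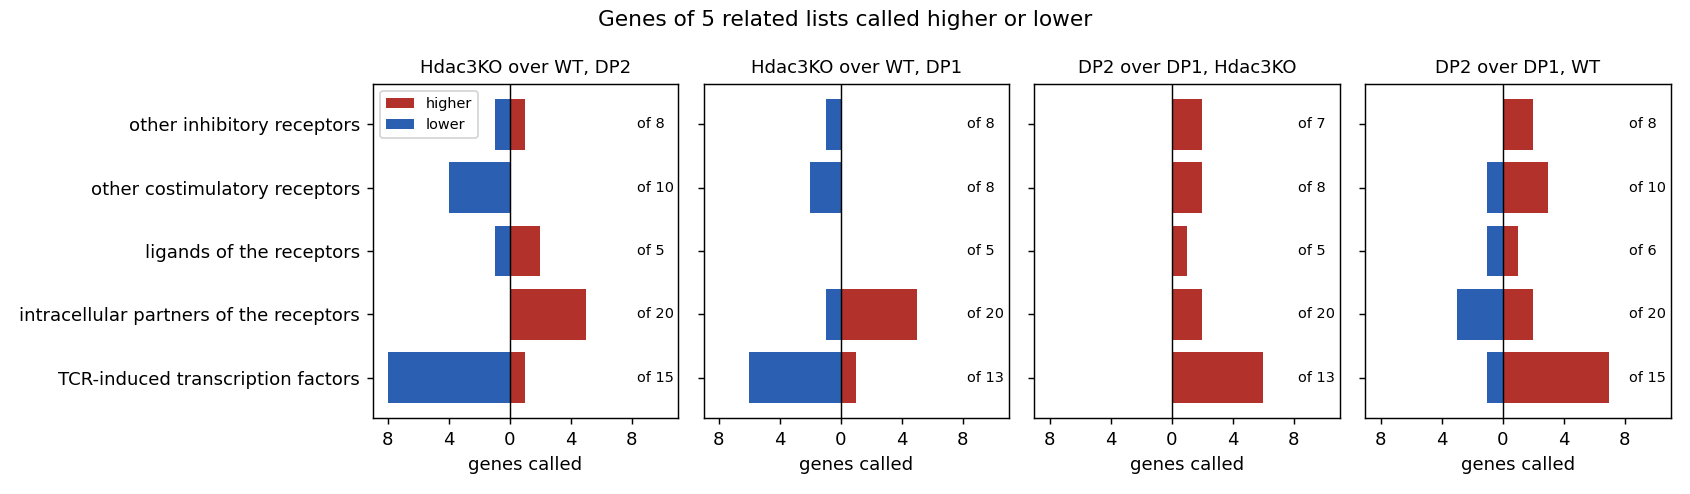
Number of genes called higher (red, right) or lower (blue, left) in each of the 5 related lists, for the genotype comparisons (Hdac3KO over WT) in DP2 and DP1 and for the stage comparisons (DP2 over DP1) in Hdac3KO and WT. The number of tested genes stands at the right of each bar, and the largest count of lower genes is 8 of 15 TCR-induced transcription factors in DP2.

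Markers of other cells were compared beside these results, and their part in them was not tested. Between genotypes 6.44% of all tested genes were called higher and 4.32% lower in DP2, and 10.7% higher and 12.9% lower in DP1. DP markers gave 5 higher and 0 lower of 10 in Hdac3KO DP2, with a summed level of 7863 FPKM against 3604 in WT DP2. In DP1 they gave 1 higher and 0 lower of 10, with 7543 FPKM in Hdac3KO and 6495 in WT. These sums include Rag1, which was not called. Rag1 was at 3006 FPKM in Hdac3KO DP2 and 671 in WT DP2 (q = 0.328 in the authors' deposited table). It was at 2655 FPKM in Hdac3KO DP1 and 1199 in WT DP1 (q = 0.191 in the authors' deposited table). Of 5 mature single-positive markers, 3 were tested in DP2, with 1 higher (Ccr7) and 1 lower (Il7r). Il7r was at 0.653 FPKM in Hdac3KO DP2 and 10.2 in WT DP2. Of 5 regulatory T cell markers, 4 were tested in DP2, with 1 higher (Il2ra) and 1 lower (Ikzf2), and summed levels of 67.3 FPKM in Hdac3KO and 119 in WT. Of 6 myeloid and dendritic markers 2 were tested and 1 was higher in DP2 and in DP1 (Itgam), with summed levels of 23.0 FPKM in Hdac3KO and 9.02 in WT in DP2. Of 5 B cell markers 1 was tested and 0 were called in either genotype comparison, with summed levels of 6.93 to 10.3 FPKM over all tables. Of 5 thymic epithelium markers 1 of 2 tested was higher in Hdac3KO DP2 (Cldn4). Of 5 double-negative stage markers 3 were tested in DP2, with 1 higher (Il2ra) and 2 lower (Hhex and Cd44).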

How the data were processed

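The members and the gene lists were chosen with earlier results of these data known. Per the submitters' processing notes, reads were processed with Trimmomatic 0.32, TopHat2 2.0.11 and Cuffdiff 2.1.1 on mm10; settings and annotation are not given in the sources used here. In the deposited tables each group of 2 libraries has 1 FPKM per gene, scaled between the 2 groups of each table only, so the same group differed between tables by a median ratio of 0.908 to 1.13. The deposited p-value and q-value are Cuffdiff's, and the authors' test statistic is a score used in alternatives. Depth per library is unknown. The p-values rest on Cuffdiff's model and 2 libraries of pooled RNA per group, and they do not measure the spread between single animals. Since 916 to 1287 cells of the deposited log2 column per table were damaged, log2 changes were computed from the FPKM without a pseudocount. SE is the size of the log2 change over the normal quantile of the deposited p. The interaction test was tested on simulated data with fixed differences. All lists' members were counted over tested genes, and 124 of 127 entries in 13 lists were found. Named are all members, up to 3 called genes with the largest change per list, comparison and direction, and the 3 genes nearest to each member called in at least 2 comparisons (at least 5 FPKM, no unnamed loci). A gene that this rule names is not reported here. Other genes were named after their values were seen. Transcript lengths came from GENCODE M21 (mm10), matched for at least 90.2% of tested genes, and a lowess curve (fraction 0.3) gave the length trend. Alternatives were q of 0.01 and 0.10, a minimum log2 change of 1, joint adjustment of the 4 tables, centring, the length trend, the deposited statistic, a minimum of 5 FPKM and pseudocounts of 0.1 and 1. Tools were Python 3.11.15, pandas 2.3.3, SciPy 1.17.1 and statsmodels 0.14.6.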

Additional observations from a re-analysis of the deposited data

Results flagged for a closer look

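Cd226 was singled out because its genotype difference differed between the stages by a test of the difference itself. The log2 change, Hdac3KO over WT, was -1.16 ± 0.29 in DP2 and 0.88 ± 0.37 in DP1, a difference of -2.05 ± 0.47 (q = 0.00894, Benjamini-Hochberg over 10144 genes). The difference from the stage tables was -2.00 ± 0.86 (q = 0.152), and by either route 1 of the 2 changes, the genotype change in DP2 or the WT stage change, has the smallest deposited p, 5e-05, so that both SE are upper bounds. Both routes rearrange the same 4 groups of libraries, so their shared sign adds no support. The DP1 change alone was not called (q = 0.0682 in the authors' deposited table), and genotype and sex cannot be told apart here either. Cd226 lies on chromosome 18, as does Hdac3, and the part of this location in its values was not tested.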

How the results depend on the processing

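No paired analysis was possible because the deposited tables hold 1 value per group and no value per library; for the same reason no library could be left out. In Hdac3KO against WT DP1 cells, the number of members called higher went to 1 (Cd226) with a q of 0.10, after centring and with the p of the deposited statistic, against 0 as reported. The number called lower there went to 0 with a q of 0.01, with the length trend removed, with the deposited statistic and at a minimum of 5 FPKM, which leaves Pdcd1 out, against 1. The number of members higher in DP2 in Hdac3KO went to 1 with a q of 0.01, against 2. The number with a lower interaction went to 0 by the stage tables and with the SE multiplied by 1.5, against 1. On the log2(FPKM + 1) scale, members at least 2-fold higher went to 0 in DP1 (Hdac3KO over WT), against 1, and to 2 between stages in Hdac3KO, against 4. The counts in DP2 between genotypes and in WT between stages stayed within 1.5 times under all alternatives run. Of 266 recomputed values of single members, 10 lost and 4 gained a call. In 249 no call changed and no untested value moved by over 1.5-fold, as 3 did. Among them 0 changed sign, but only centring, the length trend and the stage tables could change one. The other alternatives kept the sign by construction. Sizes still moved in part: with the length trend removed the log2 change of Lag3 was 0.47 in DP1 (Hdac3KO over WT), against 0.09, and -0.21 between WT stages, against -0.76, and on the log2(FPKM + 1) scale that of Pdcd1 in DP1 was -1.12, against -2.14. The median gene lay at -0.33 in the WT stage table, 0.12 in the DP2 and -0.11 in the DP1 genotype table, and -0.01 in the Hdac3KO stage table. Ctla4, at 1.18 to 2.42 FPKM, was the single member without a deposited test in any table. Lag3, also low, was tested in every table, and Pdcd1, Btla, Cd160 and Cd200 in some of them.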

Other observations

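Tigit and Cd226 encode receptors that share the ligand Pvr, and they were set side by side after their values were seen. Tigit was at 6.10 FPKM in Hdac3KO DP2 and 10.1 in WT DP2 (q = 0.369), and at 5.05 FPKM in Hdac3KO DP1 and 0.599 in WT DP1 (q = 0.0531), in the authors' deposited tables. From DP1 to DP2 it changed by 0.13 on the log2 scale in Hdac3KO (q = 0.952) and by 3.84 in WT (q = 0.0196) in the authors' deposited tables. The difference between its genotype changes, DP2 minus DP1, was -3.81 ± 1.33 and did not pass (q = 0.0876). Like Cd226, Tigit thus had its lowest value in WT DP1 and its highest in WT DP2, with both Hdac3KO values in between.

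Tox, which encodes a nuclear factor of CD4 lineage development, was at 33.8 FPKM in Hdac3KO DP2 and 84.3 in WT DP2 (q = 0.00134), and at 16.8 FPKM in Hdac3KO DP1 and 17.9 in WT DP1 (q = 0.829), in the authors' deposited tables. It rose in DP2 in both genotypes, by 0.87 in Hdac3KO (q = 0.00406) and by 1.99 in WT (q = 0.000835) on the log2 scale in the authors' deposited tables. The difference between its genotype changes was -1.23 ± 0.41 and did not pass (q = 0.0759). Cd200r1, the receptor of CD200, was at 0.269 FPKM in Hdac3KO DP2 and 4.23 in WT DP2 without a deposited test.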
